A study of Mus musculus with 3 samples.

Results

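The SR and hnRNP genes encode the main families of RNA-binding proteins that steer pre-mRNA splicing. They were taken by symbol from the protein-coding genes of the GENCODE M21 annotation: Srsf followed by a number, or a symbol that begins with Hnrnp. The rule found 31 genes, 11 SR and 20 hnRNP, among 55536 gene identifiers of which 22028 are protein-coding. It used no measured value. The 31 genes lie on 16 chromosomes and have 282 annotated transcripts.

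SR proteins carry a domain rich in arginine and serine, bind enhancers in exons and mostly favour the use of nearby splice sites. hnRNP proteins coat nascent RNA and often repress exons, and several also act on mRNA stability or export. Many genes of both families limit their own output: the protein drives its own pre-mRNA toward a form with an early stop codon, through a so-called poison exon or an intron spliced after the stop, and that form is then a substrate of nonsense-mediated decay. In macrophages some members act directly on inflammatory mRNAs. hnRNP M restrains the splicing of Il6, and hnRNP D, also called AUF1, binds AU-rich elements of cytokine mRNAs.

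Total RNA depleted of ribosomal RNA was sequenced from the cytosol of macrophages grown from the bone marrow of C57BL/6J mice. All cells had been stimulated with lipid A, the part of bacterial endotoxin that TLR4 recognises, at 100 ng/ml over 120 min. The 3 libraries, biological replicates 1, 2 and 3, form a single group with no unstimulated cells, so no effect of lipid A on these genes can be given. One donor identifier is shared by all 3, and nothing in the labels tells whether they came from different animals; the spread between them may therefore be technical. Replicate 2 was the deepest, with 114031592 expected counts, against 31152786 in replicate 1 and 59693298 in replicate 3.

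The cells matched their label. All 6 macrophage markers examined were detected, among them the lysozyme gene Lyz2 at 4039 ± 316 TPM and the lysosomal glycoprotein gene Cd68 at 545 ± 20.5 TPM (SD, n = 3 each). TPM is a level per unit of transcript length, scaled to the same total in every library, and can be compared between genes. None of 23 markers of lymphoid, granulocytic, dendritic, mast, erythroid, megakaryocytic and stromal cells reached 1 TPM in every library. Their summed level was 1.47 to 2.77 TPM in a library, and 4 of them were at 0 throughout. The nuclear RNAs Malat1, Neat1, Xist and Kcnq1ot1 summed to 789.5, 194 and 873 TPM in replicates 1, 2 and 3, so replicate 2 stood apart from the others in this measure.

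The annotation gives 19 of the 30 detected members at least 1 transcript typed as a substrate of nonsense-mediated decay (NMD), 9 of 10 SR genes and 10 of 20 hnRNP genes, against 31.0% of detected protein-coding genes. Of their 35 NMD transcripts, 11 place the stop codon in an exon that no protein-coding transcript of the gene overlaps: 9 from 5 SR genes and 2 from 2 hnRNP genes. The stretches below run from the first base of that alternative exon to its stop codon, which is in capitals. They are read 5′ to 3′ on the gene's strand from the GENCODE M21 transcripts (mm10) and show how soon translation would end after the exon is joined. Srsf4-204 is an exception, since this transcript begins inside the exon and its stretch lacks the exon's first bases. In Srsf4-203 the exon begins at 131884276, and the stretch to the same stop is 115 bases long. Srsf6-201 is added because 1 protein-coding transcript, Srsf6-202, overlaps its exon and shares its stop while having 0 TPM in every library; it is not counted among the 11.
Srsf3-201, chr17:29039454-29039487, plus strand: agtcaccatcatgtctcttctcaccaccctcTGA
Srsf4-204, chr4:131884295-131884390, plus strand: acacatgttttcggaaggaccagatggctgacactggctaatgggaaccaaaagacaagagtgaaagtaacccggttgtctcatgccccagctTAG
Srsf6-201, chr2:162932815-162932966, plus strand: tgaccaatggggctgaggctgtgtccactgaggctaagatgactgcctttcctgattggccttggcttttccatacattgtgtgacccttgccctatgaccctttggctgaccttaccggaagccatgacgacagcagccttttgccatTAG
Srsf7-203, chr17:80205054-80205081, minus strand: gtttcttcgtttgagtcagtcgcctTGA
Srsf11-206, chr3:158024209-158024231, minus strand: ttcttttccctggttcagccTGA
Srsf11-212, chr3:158023310-158023359, minus strand: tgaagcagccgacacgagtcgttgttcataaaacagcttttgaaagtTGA
Hnrnpl-213, chr7:28817335-28817393, plus strand: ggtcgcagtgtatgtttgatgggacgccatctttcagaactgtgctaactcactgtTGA
Hnrnpll-203, chr17:80044976-80045022, minus strand: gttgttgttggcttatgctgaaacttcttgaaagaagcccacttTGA

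In length these stretches ran from 23 bases in Srsf11-206 to 152 bases in Srsf6-201, of exons of 109 and 268 bases. The stop in Srsf3 comes 34 bases into a 456-base exon, and the stop in Srsf7 28 bases into a 460-base exon. Splice junctions follow each stop: 1 in Srsf11-212, 67 bases downstream, 3 in Srsf3-201, the last 548 bases downstream, and 5 in Srsf7-203, the last 699 bases downstream. Hnrnpu, whose NMD transcript was the most abundant of any member, differs in another way. Its NMD transcript Hnrnpu-206 shares 2349 of 2379 coding bases with the protein-coding Hnrnpu-201 and ends in another last coding exon. The ends of both coding regions are shown with the stop in capitals.
Hnrnpu-201, chr1:178329354-178329407, minus strand: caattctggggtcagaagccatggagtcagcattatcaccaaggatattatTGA
Hnrnpu-206, chr1:178325281-178325313, minus strand: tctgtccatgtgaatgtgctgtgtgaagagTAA

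Of the 31 genes, 30 were detected, meaning at least 1 TPM in every library, against 37.7% of all protein-coding genes. They were 10 of 11 SR genes and 20 of 20 hnRNP genes. Srsf12, an SR gene on chromosome 4, had 1, 0 and 0 expected counts in replicates 1, 2 and 3. That is under the 3 counts that a count of 0 allows, which is 0.0963, 0.0263 and 0.0503 CPM (counts scaled to library size) for counting error only, so its level was not measurable at these depths.

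Srsf5, on chromosome 12 at 80945504 to 80950507, was the highest SR gene. Replicates 1, 2 and 3 gave 80.4, 65.6 and 71.6 TPM, and the mean was 72.5 ± 7.43 TPM (SD, n = 3). Replicate 2 was lowest and replicate 1 highest, and no library fell to the level of another SR gene. Srsf2, which is known for binding exonic enhancers and for mutations in myeloid disease, followed at 26.9, 21.98 and 27.5 TPM. Srsf3, the smallest SR protein, which also couples splicing to mRNA export, was at 21.5, 16.7 and 21.1 TPM. In both genes replicate 2 was the low library and the other two were close. Srsf1, the founding member of the family, was at 15.7, 15.3 and 19.6 TPM, with replicate 3 apart. The next SR genes lay in a narrow band. Srsf6, Srsf9, Srsf7, Srsf11 and Srsf10 had means of 12.3, 12.1, 12.1, 12.0 and 9.30 TPM, and no neighbours among them were separated by their libraries. Srsf4 was the lowest detected SR gene, at 7.39, 6.37 and 6.75 TPM, below every library of Srsf10.

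In the deposited gene tables Hnrnpa3, Hnrnpa2b1 and Hnrnpf exceeded every SR gene in each library. In the second deposited quantification, taken up below, this did not hold for Hnrnpa3. There replicates 1, 2 and 3 gave 21.2, 14.0 and 12.1 TPM for Hnrnpa3 and 34.6, 28.0 and 20.9 TPM for Srsf5. Hnrnpa3, on chromosome 2 at 75659261 to 75669407, was at 104, 93.8 and 99.4 TPM, the 362nd highest mean among nuclear-encoded protein-coding genes. Hnrnpa2b1, whose protein sorts RNAs and has been described as a nuclear sensor of viral DNA, was at 102, 88.5 and 99.9 TPM. Hnrnpf, which binds G-rich tracts, was at 98.2, 90.0 and 93.8 TPM. The libraries of these 3 genes overlapped, so their order is not resolved. Hnrnpk, a binder of C-rich RNA, was at 80.0, 74.9 and 81.9 TPM, below every library of Hnrnpf and overlapping those of Srsf5.

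Below these came Hnrnpab at 63.7 ± 6.90 TPM, Hnrnpu at 49.2 ± 4.81, Hnrnpl at 42.0 ± 7.89 and Hnrnpc at 40.4 ± 0.117 (SD, n = 3 each). Hnrnpab encodes a relative of hnRNP D, hnRNP U is a large nuclear matrix protein, hnRNP L binds CA repeats and hnRNP C packages uridine-rich RNA. From Hnrnpm through Hnrnph2, Hnrnpd and Hnrnpa1 to Hnrnpul1, means ran from 34.0 to 25.5 TPM without a break between neighbours. Hnrnph1, Hnrnpul2, Hnrnpll, Hnrnpa0 and Hnrnpdl had means of 17.5 to 9.83 TPM. Hnrnpr was at 6.60, 5.74 and 6.80 TPM. Hnrnph3 was the lowest hnRNP gene at 3.17, 2.57 and 4.65 TPM, under every library of Hnrnpr. Hnrnpa1 and Hnrnpa3 have processed pseudogenes elsewhere in the genome, and how their reads were divided between copies is uncertain.

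**Figure D1:**
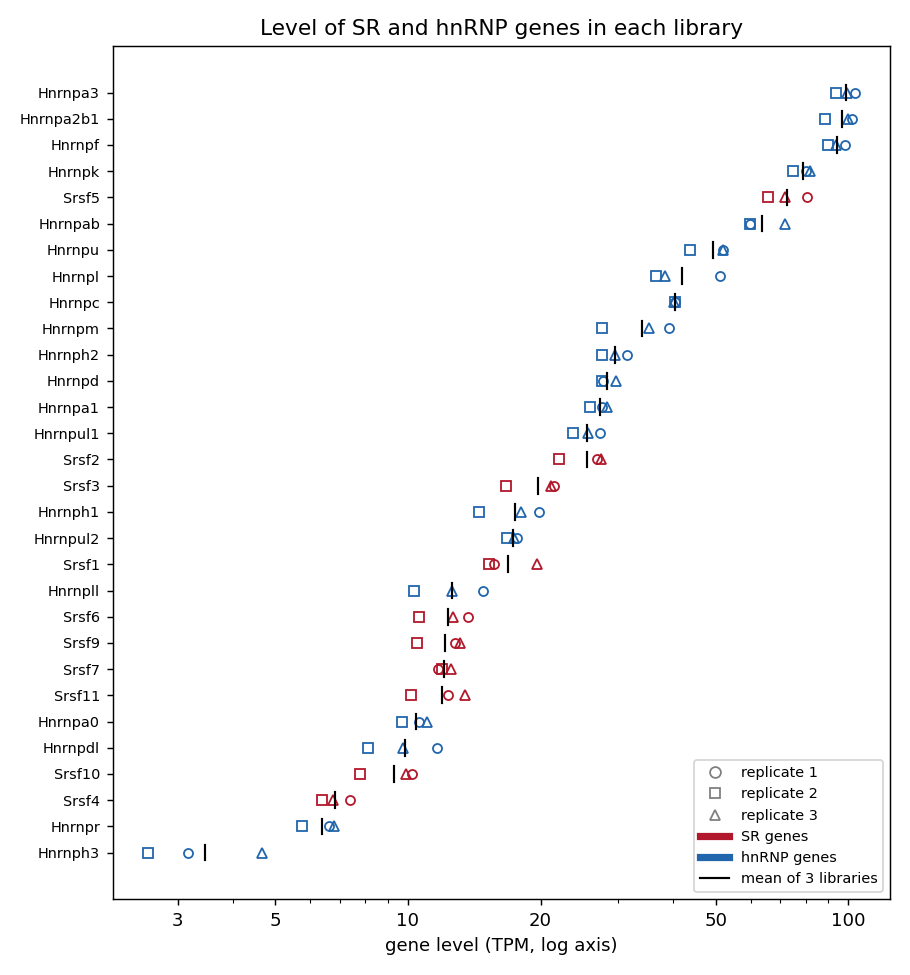
Level of each of the 30 detected genes in TPM (log axis), ordered by mean; symbols are the 3 libraries, colours the families, and the vertical bars the mean. hnRNP genes fill the upper end, from Hnrnpa3 at a mean of 98.9 TPM, with Srsf5 at 72.5 TPM as the one SR gene among the 5 highest, and Hnrnph3 at 3.46 TPM is lowest.

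In the whole order of 31 genes, 22 of 30 neighbouring pairs had overlapping libraries. The 8 breaks lay below Hnrnpf, Hnrnpab, Hnrnpc, Srsf2, Srsf1, Srsf10, Hnrnpr and Hnrnph3. The median SR gene was at 12.2 ± 1.38 TPM and the median hnRNP gene at 28.9 ± 1.18 TPM (SD, n = 3 each). Detected nuclear-encoded protein-coding genes had a median of 6.84 ± 0.491 TPM. On the log2(TPM + 1) scale, which understates differences of low genes, the hnRNP median lay 1.19 ± 0.10 above the SR median, in the same direction in 3 of 3 libraries. No p is given, since genes are not replicates. All 31 genes together took 0.444% ± 0.0159 of the TPM of nuclear-encoded protein-coding genes (SD, n = 3), 0.354% from hnRNP and 0.0896% from SR genes.

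The libraries agreed closely on these genes. The median coefficient of variation of TPM was 10.01% over the 30 detected members and 10.1% over detected nuclear-encoded protein-coding genes. The highest library was less than 1.5 times the lowest for 96.7% of the detected members and 89.4% of detected nuclear-encoded protein-coding genes. edgeR estimates a biological coefficient of variation, in which counting error is set aside; it was 0.0718 for the members, 0.131 for nuclear-encoded protein-coding genes and 0.214 for all 14037 genes with at least 10 counts on average. Even this small spread was larger than counting error for most of the set. In a Poisson dispersion test with Benjamini-Hochberg adjustment over all tested genes, 28 of 30 members varied, 8 of 10 SR genes and 20 of 20 hnRNP genes, against 64.1% of all tested genes and 64.4% of nuclear-encoded protein-coding genes. The exceptions were Srsf5, with an adjusted p of 0.642 in that dispersion test, and Srsf4, with 0.113. A gene with more counts passes this test at a smaller spread, and the members lie above most genes in level.

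The 5 members with the largest ratio of highest to lowest library among those that varied were all hnRNP genes: Hnrnph3, Hnrnpdl, Hnrnpll, Hnrnpm and Hnrnpl. Hnrnph3, with the level given above, had a ratio of 1.81 and was the one detected member above 1.5. Hnrnpdl, a relative of hnRNP D, was at 11.7, 8.10 and 9.74 TPM, a ratio of 1.44. Hnrnpll, known for directing the splicing of the CD45 pre-mRNA in lymphocytes, was at 14.8, 10.3 and 12.6 TPM. Hnrnpm was at 39.2, 27.5 and 35.3 TPM, and Hnrnpl at 51.0, 36.5 and 38.4 TPM. Replicate 2 was the low library in all 5, and the high library was replicate 1 except in Hnrnph3. The scale matters for this pattern. In TMM-normalised CPM, on which the test rests, Hnrnpm was at 93.7, 106 and 105 and Hnrnpl at 101, 116 and 105, so that replicate 1 was lowest. Hnrnpll was still lowest in replicate 2, at 72.4, 60.9 and 67.5 CPM. Hnrnpc, flat in TPM at 40.4, 40.5 and 40.2, was at 109.9, 129.6 and 119.5 normalised CPM and varied by that test. On deposited TPM, 27 of 30 members were lowest in replicate 2, against 63.1% of detected protein-coding genes. After TPM was rescaled to nuclear-encoded protein-coding genes they were 19 of 30, against 40.3%. In normalised counts they were 9 of 30, against 18.3%. The members' share was above that of all genes on each of these scales. In the second deposited quantification, taken up below, 1 of 30 was lowest in replicate 2. The share of all genes was not computed for it. The number of members lowest in replicate 2 thus ran from 1 to 27 with the scale and the quantification. No direction between the libraries at gene level is therefore drawn.

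Most of the RNA of both families was in transcripts annotated as protein-coding. In SR genes, protein-coding transcripts held 83.4% ± 2.88 of the family's TPM, retained-intron transcripts 6.39% ± 1.99, NMD transcripts 5.67% ± 0.213 and processed transcripts, a type with no open reading frame assigned, 4.53% ± 0.954. In hnRNP genes the same types held 88.2% ± 1.83, 2.73% ± 1.40, 8.03% ± 0.327 and 1.02% ± 0.289 (SD, n = 3 each). In each family 1 gene held most of the mean NMD TPM, Hnrnpu with 39.1 of 63.2 TPM and Srsf2 with 6.06 of 11.3 TPM. In replicate 1 Srsf2 held 5.38 of 12.5 TPM, the largest part but not most of it. Without Hnrnpu the hnRNP share was 3.27% ± 0.171, below that of all SR genes, and without Srsf2 the SR share was 2.98% ± 0.767 (SD, n = 3 each). Over all protein-coding genes, mitochondrially encoded ones included, NMD transcripts held 1.501% of TPM, retained-intron transcripts 3.26% and processed transcripts 2.27%. These values rest on a model that divides reads between overlapping transcripts and on the length scaling of TPM. In expected counts, which are not scaled by length, SR genes had 2.95% in NMD transcripts and hnRNP genes 8.85%.

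A share of 25% or more outside protein-coding transcripts was found in 8 of the 26 members that have such a transcript, 2 of 10 SR and 6 of 16 hnRNP genes, against 17.7% of the protein-coding genes examined likewise. In descending order they were Hnrnpu at 81.8% ± 1.07, Srsf11 at 40.1% ± 7.83, Hnrnpdl at 37.2% ± 4.14, Hnrnpd at 35.2% ± 1.76, Hnrnpll at 35.0% ± 5.36, Hnrnph1 at 32.8% ± 9.06, Hnrnpm at 31.7% ± 11.8 and Srsf2 at 26.7% ± 3.99 (SD, n = 3 each). Just under the threshold was Srsf3 at 21.3% ± 7.42. By expected counts, 4 members reached 25%, against 8.57% of the same protein-coding genes. They were Hnrnpu, Hnrnpdl, Hnrnpd and Hnrnpll, while Srsf11 had 24.6%, Hnrnph1 21.4%, Srsf2 9.77% and Hnrnpm 7.99%. Without replicate 2, Srsf2 fell below 25% and Srsf3 reached it. The annotation has only protein-coding transcripts for 5 members: Hnrnpf, Hnrnph2, Hnrnpab, Hnrnpa0 and Srsf12.

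**Figure D2:**
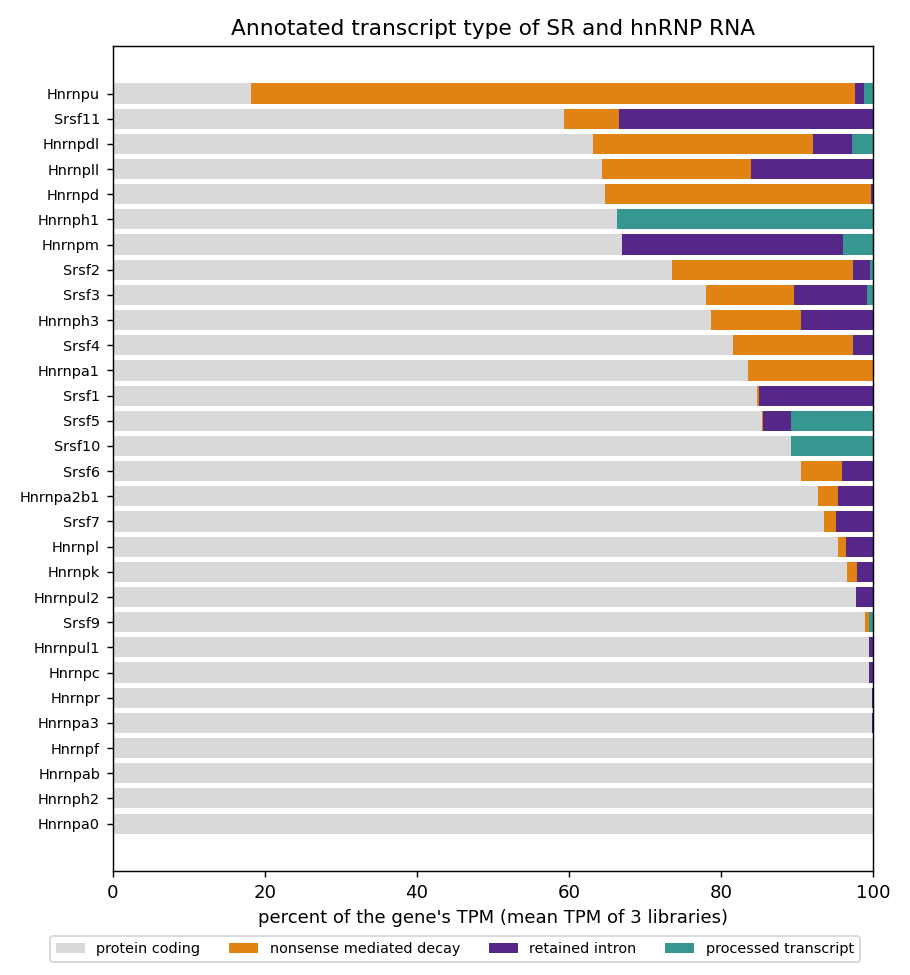
Percent of each detected gene's TPM (mean of the 3 libraries) by annotated transcript type, with genes ordered by the protein-coding share. Hnrnpu stands out with NMD transcripts as most of its TPM, while Hnrnpm and Srsf11 owe most of their share outside protein-coding transcripts to transcripts annotated as retained-intron and Hnrnph1 to processed transcripts.

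Hnrnpu, on chromosome 1 at 178321108 to 178337797, was the one member with more than 50% of its TPM outside protein-coding transcripts in the RSEM-layout tables; in the second quantification, Srsf6 and Hnrnpll passed 50% as well. Hnrnpu-206, of 2844 bases, held 77.6%, 80.1% and 79.6% of the gene's TPM in replicates 1, 2 and 3, a level of 40.3, 34.9 and 41.3 TPM. The protein-coding Hnrnpu-201, of 7640 bases, held 19.1%, 18.6% and 17.0%. The libraries differed by less than 3 percentage points for either transcript. In the second deposited quantification Hnrnpu-206 held 75.5%, 84.0% and 79.3%. Because Hnrnpu-201 is far longer, the share outside protein-coding transcripts was 61.0% in expected counts. After the stop of Hnrnpu-206 shown above, 3 junctions follow, the last 183 bases downstream. Its coding region is 21 bases shorter than the 2400 bases of Hnrnpu-201.

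In Hnrnpd, Hnrnpdl and Srsf2, NMD transcripts were also the largest type outside protein-coding transcripts. In Hnrnpd, Hnrnpd-208 held 27.9%, 33.3% and 35.2% of TPM, and all NMD transcripts 35.0% ± 1.799. In Hnrnpdl, Hnrnpdl-205 held 16.65%, 20.9% and 15.1%, and all NMD transcripts 29.6% ± 7.01. In Srsf2, Srsf2-204 held 20.0%, 29.0% and 23.4%, its only NMD transcript with TPM above 0. Srsf2-204 is short, with 620 bases of which 56 are coding, against 1899 bases in the protein-coding Srsf2-201. By expected counts all types outside protein-coding transcripts together held 9.77% of Srsf2. Replicate 2 was highest for Hnrnpdl-205 and Srsf2-204 and intermediate for Hnrnpd-208, so these shares were not low there. In Hnrnpll, the poison-exon transcript Hnrnpll-203 held 19.55%, 22.8% and 16.8%. Retained-intron transcripts of that gene held 20.8%, 6.78% and 18.2%, so NMD transcripts led in replicate 2 alone. Hnrnpa1, the gene of a well-studied exon repressor, had 16.3% ± 4.61 in NMD transcripts, Srsf4 15.6% ± 2.90, Hnrnph3 12.0% ± 1.24 and Srsf3 11.3% ± 3.17 (SD, n = 3 each). In Srsf3 this was Srsf3-201, at 15.0%, 9.23% and 9.78%. In Srsf4, Srsf4-204 held 13.5%, 11.5% and 11.2%. In Hnrnph3, Hnrnph3-204 held 12.0%, 13.3% and 10.7%. Members with little NMD RNA included Srsf9, Srsf1, Srsf5 and Hnrnpr, all under 0.5% of TPM.

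The place of the stop sorts the NMD transcripts into classes. In SR genes, transcripts with the stop in an exon absent from coding transcripts summed to 6.15, 3.09 and 4.13 TPM, and those sharing the stop of a coding transcript to 6.27, 6.82 and 7.11 TPM, all of it Srsf2-204 and Srsf6-201. In hnRNP genes, poison-exon transcripts summed to 3.21, 2.80 and 2.68 TPM, and those sharing a coding stop to 18.4, 16.05 and 20.9 TPM. The latter include Hnrnpa1-203, whose coding region of 960 bases is that of Hnrnpa1-202 in full, and Hnrnpdl-201, which likewise holds all 1260 coding bases of Hnrnpdl-202. In both, 2 junctions follow the stop. The remaining hnRNP transcripts, 43.5, 37.8 and 44.1 TPM, were nearly all Hnrnpu-206. These sums are a description with no test, since each class holds few genes.

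Retained-intron transcripts led in Srsf11 and Hnrnpm. The type is the annotation's label: of the members' 75 such transcripts, 28 contain a whole intron of a protein-coding transcript within an exon, and none of the 11 of Srsf11 or the 4 of Hnrnpm does. In Srsf11, whose protein takes part in 3′ splice-site choice, the highest of them was Srsf11-208 at 12.1%, 3.15% and 9.74% of TPM. In Hnrnpm, Hnrnpm-213, of 591 bases at the 3′ end of the gene, held 39.7%, 14.9% and 23.6%. Replicate 2 was lowest in both. It was far below the other libraries for Srsf11-208, while for Hnrnpm-213 replicate 3 was nearer to replicate 2 than to replicate 1. In the second quantification Hnrnpm-213 held 24.5%, 0.606% and 3.76%, and by expected counts all types outside protein-coding transcripts together held 7.99% of Hnrnpm. Hnrnph1 was the one high-share member led by a processed transcript, Hnrnph1-212, at 16.1%, 9.73% and 9.58%. In Hnrnpl, Hnrnpl-206 held 1.58%, 0.41% and 1.53%. In Srsf1, which lay below the 25% threshold, the retained-intron transcript Srsf1-203 held 12.0%, 15.9% and 15.6%. In Srsf5 the highest transcript outside the coding type, Srsf5-211, held 5.89%, 5.65% and 6.45%. Such shares were under 3% in every library for Hnrnpa2b1-207, Hnrnpk-206, Hnrnpa3-205 and Hnrnpr-211.

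In 3 SR genes an intron that is kept whole contains the alternative exon. The intron of 2150 bases kept in Srsf3-204 contains the 456-base exon of Srsf3-201, the intron of 1283 bases kept in Srsf6-204 contains the 268-base exon of Srsf6-201, and the intron of 874 bases kept in Srsf7-206 contains the 460-base exon of Srsf7-203. The same pre-mRNA segment thus has 3 annotated outcomes: removed, retained, or spliced around the alternative exon. The 30 bases at each border of the Srsf3 intron are shown with the first and last 2 bases of the intron in capitals.
Srsf3-204 donor border, chr17:29038616-29038645, plus strand: tcggcgcagGTacttgagagagcacctttt
Srsf3-204 acceptor border, chr17:29040754-29040783, plus strand: ttttactgtttctgcttctAGatccccaag
Srsf3-204 was at 1.35, 0.26 and 1.07 TPM and the exon-containing Srsf3-201 at 3.22, 1.54 and 2.06 TPM. Both were lowest in replicate 2, the retained form by more. Srsf6-204 was at 0.76, 0.09 and 0.65 TPM and Srsf6-201 at 0.89, 0.45 and 0.68 TPM, with the same order of libraries. In Srsf7, Srsf7-206 was at 0.71, 0.30 and 0.54 TPM and Srsf7-203 at 0.37, 0.10 and 0.09 TPM.

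Low retained-intron RNA in replicate 2 was seen in most members that had such RNA. Of the 30 detected members 22 have an annotated retained-intron transcript, against 63.4% of detected protein-coding genes. Of 43 such transcripts with a mean of at least 0.1 TPM, 39 were lowest in replicate 2, against 73.5% of the 5603 retained-intron transcripts of all protein-coding genes. The median log2 ratio of replicate 2 to the mean of the others was -2.21 over the 42 members' transcripts above 0 in every library, and -1.51 over those of all genes. Summed over the members, retained-intron RNA was at 48.8, 16.2 and 39.7 TPM, which was 4.71%, 1.79% and 3.91% of their TPM. Transcripts that contain a whole intron made up 16.55, 6.34 and 16.2 TPM of it. Over all protein-coding genes, mitochondrially encoded ones included, the summed share was 3.34%, 3.03% and 3.40%, so that replicate 2 was lowest by far less. No such share was computed without the mitochondrial genes. By number of transcripts the pattern was thus shared with most other genes, and by summed TPM it was small over all protein-coding genes; whether the members differ from other genes was not tested. This pattern was noticed in the data and chosen for that reason, so it carries no p.

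By gene, retained-intron RNA was lowest in replicate 2 in 18 of the 20 members with at least 0.1 TPM of it, against 74.8% of 3732 protein-coding genes likewise. Hnrnpa2b1 had 6.30, 1.73 and 5.28 TPM, Srsf11 4.77, 2.69 and 4.54, and Srsf5 3.81, 0.80 and 3.55. In each, replicates 1 and 3 were close and replicate 2 was apart. The exceptions were Srsf1, at 1.96, 2.43 and 3.20 TPM, and Hnrnpc, where replicates 2 and 3 tied at 0.16 TPM. The 4 single transcripts that were not lowest in replicate 2 were Srsf1-203, Srsf11-211, Hnrnpa2b1-206 and Hnrnpk-206, named after their values were seen.

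Other transcript types moved less. Of the members' NMD transcripts 14 of 25 were lowest in replicate 2, against 46.2% over all protein-coding genes. Their median log2 ratio was -0.70, against -0.29 over those of all genes. Their sum was 77.7, 66.7 and 79.1 TPM. Of the protein-coding transcripts 61 of 105 were lowest there, against 48.5%, with a median of -0.19, against -0.16 over all genes. Of the processed transcripts 14 of 19 were lowest there, against 47.6%, with a median of -1.09, against -0.43 over all genes. Within the same libraries Malat1, a long noncoding RNA kept in the nucleus, stood at 741 TPM in replicate 1, 178 in replicate 2 and 812 in replicate 3. Neat1, the scaffold RNA of paraspeckles, stood at 42.6, 14.4 and 50.8 TPM in that order. Replicate 2 was thus lowest for nuclear RNAs and for the members' retained-intron transcripts alike. The part of nuclear RNA, and of unspliced precursor carried with it, in the retained-intron values was not tested.

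**Figure D3:**
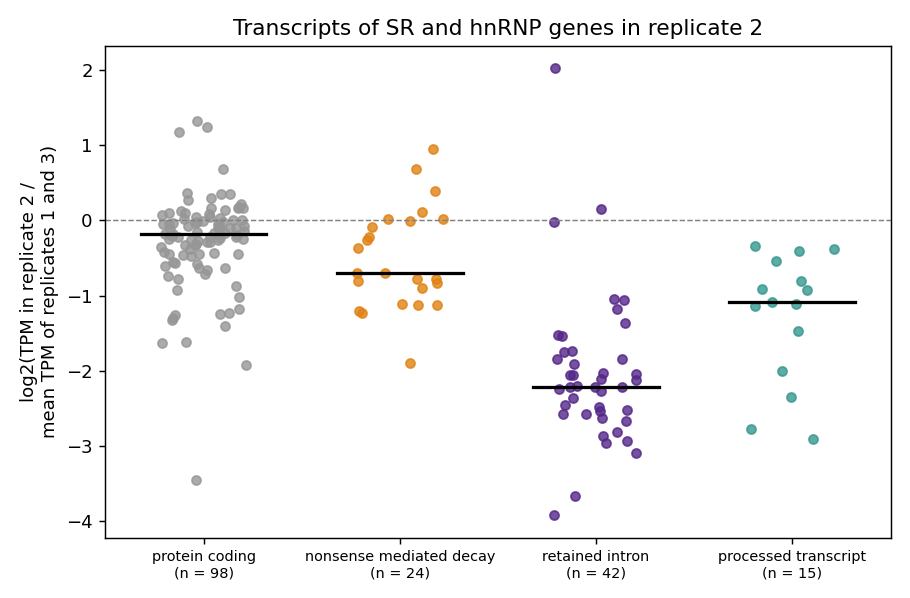
Each point is a transcript of an SR or hnRNP gene with a mean of at least 0.1 TPM and a value above 0 in every library; the vertical axis is the log2 ratio of its TPM in replicate 2 to the mean of replicates 1 and 3, and bars are medians by annotated type. Retained-intron transcripts have a median of -2.21 and protein-coding transcripts of -0.19, with NMD transcripts at -0.70 and processed transcripts at -1.09.

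The second deposited quantification gave another scale and, for a few members, another picture. Over 8275 detected nuclear-encoded protein-coding genes the gene-table TPM was 2.55 times the TPM summed from that quantification. For 95% of them the ratio lay between 1.77 and 3.05. Over the members the median ratio was 2.53, so the order was largely kept. Hnrnpa3 was the exception at 6.28, and the highest gene of the set in the gene tables was the ninth highest in the second quantification, which put Hnrnpk first. Hnrnpa3-207, of 1074 bases, had 29.65%, 36.8% and 36.9% of the gene's TPM in the gene-table quantification, a mean of 34.0 TPM, and was listed at or near 0 in the other. That transcript is part of the gap only. Without it the gene-table level of Hnrnpa3 was 65.0 TPM against 15.8 TPM, a ratio of 4.12, and Hnrnpa3-202 alone was at 49.4 TPM against 13.0 TPM. For Hnrnpa3 the level is therefore uncertain by more than the spread between libraries.

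Among transcript shares the largest difference was in Srsf6. The NMD transcript Srsf6-201 held 6.50%, 4.23% and 5.33% of TPM in the first quantification and 39.0%, 57.3% and 43.3% in the second. The share outside protein-coding transcripts was 9.22% ± 3.65 and 52.0% ± 5.85 (SD, n = 3 each). The libraries of the one did not overlap those of the other, so no single share can be given for Srsf6. For Hnrnpll the 2 values were 35.0% and 51.4%, for Hnrnpd 35.2% and 23.2%, for Hnrnpu 81.8% and 85.8%, and for Srsf11 40.1% and 44.0%. By the second quantification 9 members reached 25%, against 22.3% of the same protein-coding genes, and 5 of them were among the 8 named above. Hnrnpd, Hnrnpm and Srsf2 dropped out, at 23.2%, 22.1% and 19.3%, and Srsf6, Srsf3, Hnrnph3 and Srsf4 came in, at 52.0%, 32.5%, 32.2% and 26.4%.

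**Figure D4:**
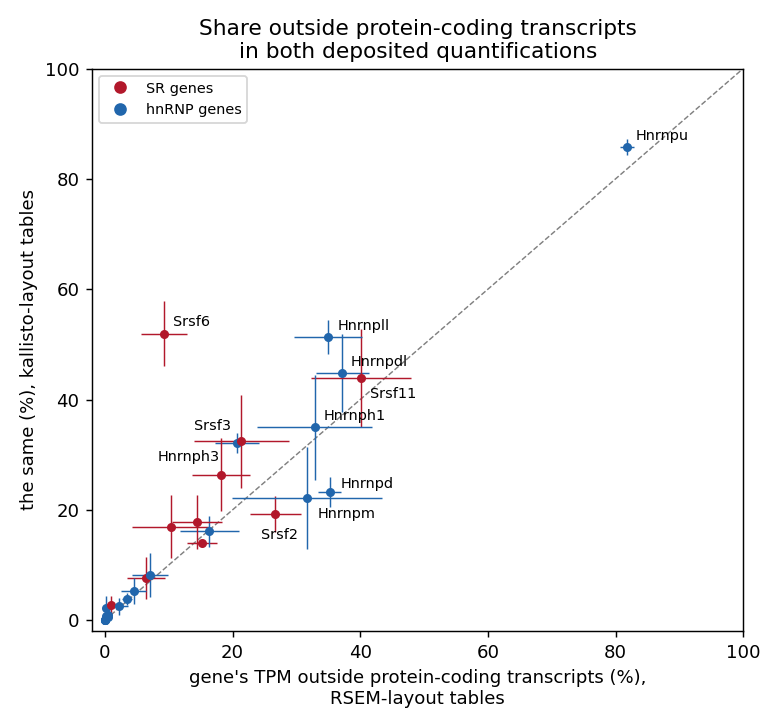
Percent of each detected gene's TPM outside protein-coding transcripts in the RSEM-layout tables (horizontal) and the kallisto-layout tables (vertical); points are means, bars SD over the 3 libraries, and the dashed line is equality. Srsf6 lies far above the line, at 9.22% and 52.0%, while Hnrnpu is near it at 81.8% and 85.8%.

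The partners of these proteins were present as well. For the counts of these lists and those below, 37.7% of all protein-coding genes were detected and 64.1% of all tested genes varied. Of 12 genes of kinases and phosphatases that act on SR proteins 11 were detected, with a median of 7.003 TPM, and 10 of 12 varied beyond counting error in the dispersion test. The phosphatase subunit genes Ppp1ca at 53.6 ± 2.45 TPM and Ppp1cc at 42.3 ± 6.05 were highest, and the kinase gene Srpk3 was lowest at 0.0800 ± 0.0361 TPM. All 3 genes of nuclear import receptors were detected, the SR carrier gene Tnpo3 at 9.29 ± 0.710 TPM, Tnpo1, whose protein carries hnRNP A1, at 9.95 ± 1.07 and Tnpo2 at 4.33 ± 0.676 (SD, n = 3 each); 2 of 3 varied.

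Of 21 SR-related genes outside the symbol rule, all were detected at a median of 9.14 TPM and 19 varied. Srrm2, which encodes a scaffold of nuclear speckles, was at 42.6 ± 3.90 TPM and Rsrp1 at 35.0 ± 5.97, and Srek1 was lowest at 1.65 ± 0.562. Of 33 hnRNP-like regulators outside the rule 28 were detected, with a median of 17.1 TPM, and 26 varied. Pcbp2, a relative of Hnrnpk, was at 127 ± 10.8 TPM, above every member of the set in each library, and Mbnl1 at 93.8 ± 9.27 lay among the highest hnRNP genes. Rbfox2 was lowest at 0.0467 ± 0.0208 TPM (SD, n = 3 each). By median level the hnRNP genes stood above each of these lists, and the SR genes, at 12.2 TPM, stood between the hnRNP-like and the SR-related genes.

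All 36 core spliceosome genes were detected at a median of 10.1 TPM, and 33 varied. Sf1, which recognises the branch point, was at 33.1 ± 0.612 TPM and Sf3b1 at 28.3 ± 3.93, and Prpf4 was lowest at 2.03 ± 0.123. All 16 genes of the decay pathway and the exon junction complex were detected at a median of 5.36 TPM, and 12 varied. Eif4a3, the helicase that anchors the junction complex, was at 21.4 ± 2.73 TPM, Rnps1 at 14.5 ± 0.745 and Upf3b, an adaptor of the decay machinery, was lowest at 1.18 ± 0.0751 (SD, n = 3 each). No count of these lists is set against another, since the lists differ in level and depth decides much of the test.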

How the data were processed

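Ribosomal RNA-depleted RNA of 1 group of 3 libraries was analysed, with replicate numbers from the labels. For each library the authors deposited tables of genes and of transcripts in RSEM layout and a further transcript table in kallisto layout, called the second quantification. Per the file headers, these hold expected counts, TPM, FPKM, each transcript's percent of the TPM of its gene, and bounds of TPM from the authors' sampling, treated as a signal and used in no comparison. The deposited text listing names mm10 and GENCODE M21. Aligner, tool versions and strand setting were not given in the sources used here, and reads of genes that overlap, also in antisense, may thus be mixed.

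Symbols, types and coordinates came from GENCODE M21, which held all 55536 gene identifiers, and sequences from its transcripts. Members were summed by annotated type, and second-quantification TPM over the transcripts of a gene. Detection required 1 TPM in every library. Expected counts were rounded, scaled with TMM (edgeR 4.0.16, R 4.3.3; DESeq2 1.42.0 as the alternative) and tested for dispersion beyond Poisson error, a chi-square with 2 degrees of freedom, in genes with a mean of at least 10 counts; adjusted p-values under 0.05 were called. The test was checked on simulated counts. Python 3.11.15 with scipy 1.17.1, pandas 2.3.3 and numpy 2.4.6 served for the rest.

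The members, gene lists and choices were made with earlier results of these data known. By rule, values in every library were given for the 4 highest and 2 lowest members of each family, members with at least 25% of TPM outside protein-coding transcripts, and the 5 varying members with the largest ratio of highest to lowest library; their highest transcript outside the coding type was named, and of each list the 2 highest genes and the lowest. Alternatives were other thresholds, scales, FPKM, the second quantification, expected counts and each replicate left out.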

Additional observations from a re-analysis of the deposited data

How the results depend on the processing

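Levels moved with the scale, and the direction between families did not. After rescaling to nuclear-encoded protein-coding genes the SR median was 54.7 TPM and the hnRNP median 130.3 TPM. They were 23.1 and 55.1 in FPKM, and 5.51 and 11.6 TPM in the second quantification, where the log2 difference was 0.95. NMD transcripts held 8.37% of SR and 8.67% of hnRNP TPM in the second quantification and 2.95% and 8.85% of expected counts; the median member had 2.92% and 0%, and without the highest gene, Srsf2 or Hnrnpu, the shares were 2.98% and 3.27%. The median member had 3.69% and 0.536% in retained introns, and in hnRNP genes 3.99% outside protein-coding transcripts. For SR genes that share was 22.1% in the second quantification and 10.8% of expected counts. Members with a high share numbered 1 at a threshold of 50% and 15 at 10%, for which no share over all genes was computed. They were 4 by expected counts, against 8.57% of protein-coding genes examined likewise. In the second quantification they were 9, against 22.3%, and shared 5 of the 8. Retained-intron transcripts lowest in replicate 2 were 16 of 19 at a mean of at least 0.5 TPM and 33 of 37 in the second quantification. In that quantification 1 of 30 genes was lowest in replicate 2. Shares over all genes were not computed for these counts. On the main setting 73.5% of all such transcripts were lowest in replicate 2. The alternatives for replicate 2, and the shares without a gene, were chosen after seeing the data.

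Leaving out each replicate gave 30 detected members and 8 with a high share, of which 7 were shared without replicate 2, where Srsf3 took the place of Srsf2, and 8 otherwise. It gave an SR median of 11.7 to 12.95 TPM, an hnRNP median of 28.6 to 29.6 and a log2 difference of 1.13 to 1.22, and left 21 or 22 members varying. With DESeq2 size factors 28 varied, with no count filter 27, and with TMM over nuclear-encoded protein-coding genes 26. The share of all genes was not computed for these settings or with a replicate left out. In the main test 64.1% of all tested genes varied. No paired analysis was possible because the series has 1 group. TPM keeps no depth, and replicate 1, the shallowest, limits transcripts near 0.1 TPM. Transcript shares are model estimates, with no check here against junction reads.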
